A study of Neurospora crassa with 4 samples.

Results

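Programmed cell death effectors of *Neurospora crassa* were followed across wild-type and Δ*czt-1* cells exposed to staurosporine. They are the 6 loci listed for this purpose by locus number: *aif* (NCU05850), *amid* (NCU06061), *amid-2* (NCU12058), the genes for metacaspase-1B (NCU02400) and metacaspase-1A (NCU09882), and the poly(ADP-ribose) polymerase gene *parp* (NCU08852). Each had a row of its own among the 9691 rows of the expression tables, none was joined with another locus, and all 6 were among the 7896 genes with at least 1 FPKM (a read count scaled by transcript length and library size) in at least 1 library. The deposited descriptions name the metacaspases as such. They call *aif* a rubredoxin-NAD(+) reductase, *amid* and *amid-2* oxidoreductases, and *parp* a polymerase 2 ADP-ribosyltransferase 2.

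Transcripts were measured by RNA-seq in 4 samples: Δ*czt-1* cells with staurosporine, Δ*czt-1* cells with the solvent DMSO, wild-type cells with staurosporine and wild-type cells with DMSO. Δ*czt-1* is a strain deleted for NCU09974, a gene for a zinc cluster transcription factor. All cultures were germinating conidia grown for 6 h in minimal medium at 26 °C under constant light, and either DMSO or 20 μM staurosporine was then present for 1 h. There was 1 library per condition, so no difference below has a replicate error, a test or a p-value, and each compares libraries.

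Staurosporine is a broad inhibitor of protein kinases that is widely used to trigger programmed cell death. In mammals, AIF is a flavoprotein of the mitochondrial intermembrane space that can move to the nucleus during caspase-independent death, and AMID is a related NAD(P)H oxidoreductase. Metacaspases are cysteine proteases of fungi, plants and protists that share the caspase fold but cleave after basic residues. Poly(ADP-ribose) polymerases use NAD+ to build ADP-ribose chains on proteins, typically at damaged DNA, and in mammals their overactivity is one route to AIF-dependent death.

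*czt-1* served as the check of the labels. It had 1.54 FPKM with staurosporine and 2.26 FPKM with DMSO in Δ*czt-1* cells, against 384 FPKM with staurosporine and 19.7 FPKM with DMSO in wild-type cells. FPKM summed to 550288 in Δ*czt-1* and 570298 in wild-type cells with staurosporine, against 877439 in Δ*czt-1* and 1072129 in wild-type cells with DMSO. The part of these unequal sums in the results was not tested, beyond the scaling given here. Scaling all libraries to the same sum moved the median difference of all genes between staurosporine and DMSO to 0.60 in Δ*czt-1* and to 0.85 in the wild type, against 0.000129 in Δ*czt-1* and 0.11 in the wild type with the deposited values. Differences are given as log2(FPKM + 1) in the first group minus that in the second, a scale that understates the change of low genes, and 2-fold means a log2 difference of at least 1 in size.

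The 6 genes did not share a pattern. With staurosporine, *aif* was many times higher in both strains, *parp* was higher mainly in Δ*czt-1*, *amid-2* was higher in the wild type, and *amid* was lower in Δ*czt-1*. On the log2(FPKM + 1) scale, both metacaspase genes were under 2-fold in both strains before libraries were scaled to the same sum. Metacaspase-1B in Δ*czt-1* was only just under that line (0.98), with a 2.01-fold higher FPKM. In Δ*czt-1* cells, 2 of the 6 genes were at least 2-fold higher with staurosporine than with DMSO and 1 was at least 2-fold lower, against 18.2% and 19.6% of all genes, or 37.7% in either direction. In wild-type cells, 3 of the 6 were at least 2-fold higher and 0 at least 2-fold lower, against 12.8% and 14% of all genes, or 26.8% in either direction. Between the strains with DMSO, 1 of the 6 was at least 2-fold higher in Δ*czt-1* and 0 were lower, against 2.58% and 2.36% of all genes, or 4.94% in either direction. Between the strains with staurosporine, 1 was at least 2-fold higher and 1 at least 2-fold lower in Δ*czt-1*, against 10.9% and 12.2% of all genes, or 23.1% in either direction. The median difference of the 6 genes between staurosporine and DMSO was 0.63 in Δ*czt-1* and 0.89 in the wild type. With all libraries scaled to the same sum, all 6 genes were at least 2-fold higher in the staurosporine-treated wild-type cells, and the shares of all genes higher and lower became 43.1% and 4.47%. In Δ*czt-1* these shares became 35% and 10.7%, and 3 of the 6 genes were then at least 2-fold higher and 0 lower. These are mRNA levels in whole cultures, in which less RNA per cell and fewer cells with the RNA cannot be told apart.

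**Figure D1:**
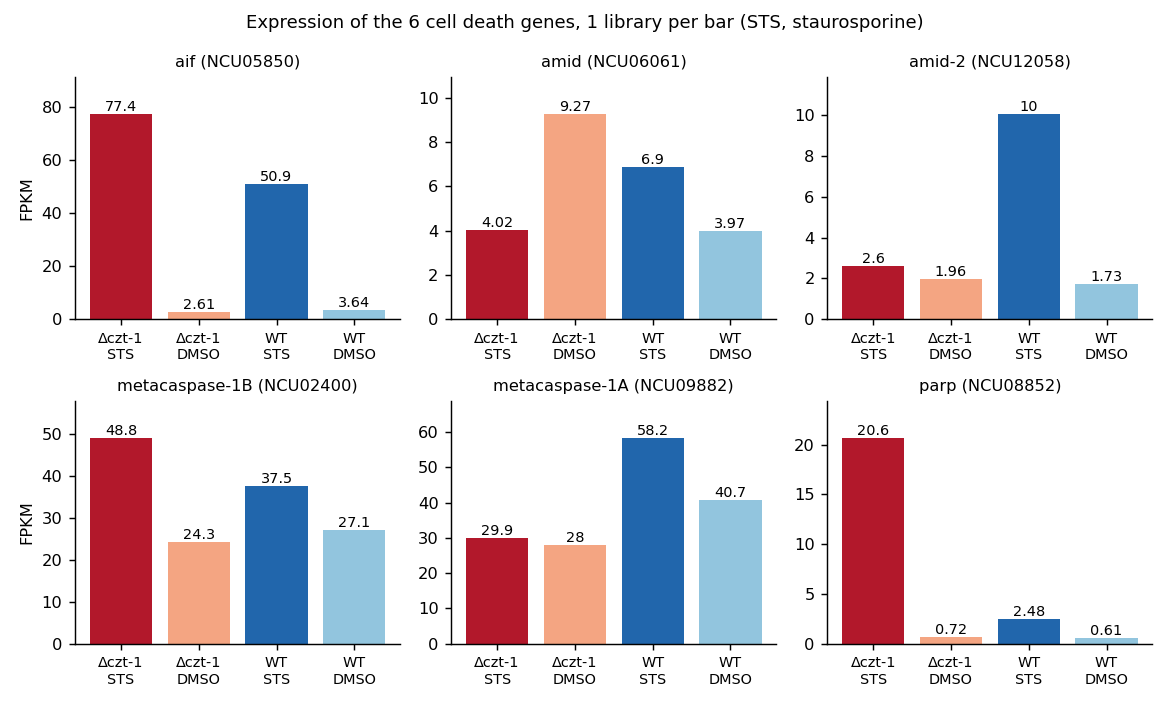
FPKM (linear vertical axis from 0, a separate scale for each gene) of the 6 genes in the 4 libraries, 1 bar per library, with staurosporine (STS) left of DMSO and Δ*czt-1* left of the wild type (WT). *aif* is high in both staurosporine libraries (77.4 FPKM in Δ*czt-1*, 50.9 FPKM in the wild type), *parp* mainly in the Δ*czt-1* staurosporine library (20.6 FPKM), and *amid-2* in the wild-type staurosporine library (10.04 FPKM).

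The AIF family, which holds the flavoproteins, had the gene with the widest span. *aif* had 77.4 FPKM with staurosporine and 2.61 FPKM with DMSO in Δ*czt-1* cells, against 50.9 FPKM with staurosporine and 3.64 FPKM with DMSO in wild-type cells. Both staurosporine libraries were thus far above both DMSO libraries, and the strains lay close together within each treatment. FPKM of *aif* was 29.7-fold higher with staurosporine in Δ*czt-1*, a log2 difference of 4.44 that placed it at rank 17 from the top of 7896 genes. In the wild type it was 13.97-fold higher with staurosporine, a log2 difference of 3.48 and rank 24. A difference of at least 8-fold upward in both strains was seen for 22 genes, or 0.279% of all, and *aif* was one of them. Its rank among the genes of a library differed likewise. In Δ*czt-1* 86.6% of the genes were lower than *aif* with staurosporine and 19.2% with DMSO, and in the wild type 79.2% were lower with staurosporine and 24.5% with DMSO. Between the strains, *aif* was 1.52-fold higher in Δ*czt-1* with staurosporine (log2 difference 0.59) and at 0.716 of the wild-type FPKM with DMSO (log2 difference -0.36), and both differences were under 2-fold. Comparisons between strains and comparisons between treatments share libraries, so the chance values of a library enter both.

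*amid* was the only one of the 6 genes whose staurosporine difference had opposite signs in the strains. It had 4.02 FPKM with staurosporine and 9.27 FPKM with DMSO in Δ*czt-1* cells, against 6.90 FPKM with staurosporine and 3.97 FPKM with DMSO in wild-type cells. The highest library was Δ*czt-1* with DMSO and the lowest were Δ*czt-1* with staurosporine and the wild type with DMSO. The log2 difference between staurosporine and DMSO was -1.03 in Δ*czt-1* and 0.67 in the wild type. Opposite signs in the strains were common, found in 30% of all genes, but the wild type was higher with staurosporine and Δ*czt-1* at least 2-fold lower in 3.17%. With DMSO, *amid* had a 2.33-fold higher FPKM in Δ*czt-1* cells than in wild-type cells, with a log2 difference of 1.05 and rank 176 of 7896. With staurosporine it was at 0.583 of the wild-type FPKM, a log2 difference of -0.65. Both values past 2-fold lay just over that line. A pseudocount of 5 FPKM in place of 1 took *amid* under 2-fold in both, as did scaling to the same sum for the staurosporine difference in Δ*czt-1* (-0.46).

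*amid-2* was high in a single library. It had 2.60 FPKM with staurosporine and 1.96 FPKM with DMSO in Δ*czt-1* cells, against 10.04 FPKM with staurosporine and 1.73 FPKM with DMSO in wild-type cells. The Δ*czt-1* libraries and the wild-type DMSO library were close to each other, and the staurosporine-treated wild type stood above them. FPKM was 1.33-fold higher with staurosporine in Δ*czt-1* (log2 difference 0.28) and 5.80-fold higher in the wild type (log2 difference 2.02, rank 187). The pattern of at least 2-fold higher in the wild type and under 2-fold either way in Δ*czt-1* was shared by 460 genes, or 5.83%. With staurosporine, FPKM in Δ*czt-1* was 0.259 of that in the wild type, a log2 difference of -1.62 that placed *amid-2* at rank 371 from the bottom. It was -0.98, just under 2-fold, with a pseudocount of 5 FPKM. With DMSO the strains differed by 0.12. In the NC12 assembly *amid-2* overlaps NCU09285, a zinc-containing alcohol dehydrogenase gene with 156 FPKM with staurosporine and 129 FPKM with DMSO in Δ*czt-1*, against 194 FPKM with staurosporine and 186 FPKM with DMSO in the wild type. That gene was many times more abundant than *amid-2* in every library, and its staurosporine difference was 0.27 in Δ*czt-1* and 0.06 in the wild type. The sources used here do not say how overlapping reads were counted, and reads of the 2 genes in the overlap cannot be told apart.

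The make-up of the AIF family does not depend on how a library is scaled. *aif* made up 92.1% of the summed FPKM of the 3 genes in Δ*czt-1* with staurosporine and 18.9% with DMSO, against 75.0% with staurosporine and 39.0% with DMSO in the wild type. *amid* made up 4.79% with staurosporine and 67.0% with DMSO in Δ*czt-1*, against 10.2% with staurosporine and 42.5% with DMSO in the wild type. Thus *amid* was the most abundant of the family per length with DMSO in both strains, and *aif* with staurosporine in both. The share of *amid-2* was 3.09% in Δ*czt-1* with staurosporine and 14.2% with DMSO, against 14.8% with staurosporine and 18.5% with DMSO in the wild type. The summed FPKM was 84.0 with staurosporine and 13.8 with DMSO in Δ*czt-1*, against 67.9 with staurosporine and 9.35 with DMSO in the wild type.

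**Figure D2:**
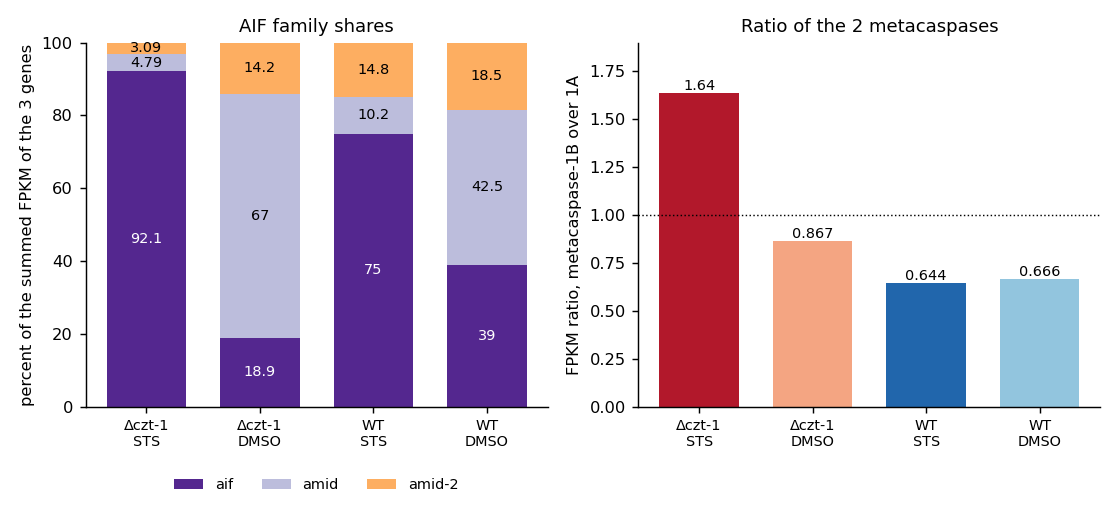
Left, percent of the summed FPKM of *aif*, *amid* and *amid-2* that each gene takes, 1 stacked bar per library. Right, ratio of metacaspase-1B to metacaspase-1A FPKM in each library, with a dotted line at 1. *aif* takes 92.1% and 75.0% with staurosporine (STS) in Δ*czt-1* and wild-type (WT) cells, and the ratio is above 1 only in Δ*czt-1* with staurosporine (1.64).

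The metacaspase genes were the most abundant of the 6 with DMSO, and their log2 values spanned least over the 4 libraries (0.98 for metacaspase-1B and 1.03 for metacaspase-1A, with 1.05 for *amid* the next). Metacaspase-1B had 48.8 FPKM with staurosporine and 24.3 FPKM with DMSO in Δ*czt-1* cells, against 37.5 FPKM with staurosporine and 27.1 FPKM with DMSO in wild-type cells. It was thus higher with staurosporine in both strains, by 2.01-fold in FPKM in Δ*czt-1* (log2 difference 0.98, just under the 2-fold line, with 1.01 at a pseudocount of 0.1 FPKM and 1.64 with equal sums) and by 1.38-fold in the wild type (log2 difference 0.45). The strains differed by 0.37 with staurosporine. With DMSO they differed by -0.15, a direction that turned to 0.12 when libraries were scaled to the same sum. Metacaspase-1A had 29.9 FPKM with staurosporine and 28.0 FPKM with DMSO in Δ*czt-1* cells, against 58.2 FPKM with staurosporine and 40.7 FPKM with DMSO in wild-type cells. Both Δ*czt-1* libraries were below both wild-type libraries. Its staurosporine difference was 0.09 in Δ*czt-1* and 0.51 in the wild type, and Δ*czt-1* differed from the wild type by -0.94 with staurosporine and by -0.53 with DMSO. A difference under 2-fold either way in both strains was the commonest pattern, found in 52.6% of all genes.

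Within the libraries the balance of the metacaspases differed. The ratio of metacaspase-1B to metacaspase-1A was 1.64 with staurosporine and 0.867 with DMSO in Δ*czt-1*, against 0.644 with staurosporine and 0.666 with DMSO in the wild type. Metacaspase-1B was therefore the more abundant of the pair per length only in staurosporine-treated Δ*czt-1* cells. Their summed FPKM was 78.7 with staurosporine and 52.2 with DMSO in Δ*czt-1*, against 95.7 with staurosporine and 67.8 with DMSO in the wild type. In NC12 the metacaspase-1B gene overlaps NCU02401, described as the regulatory factor Sgt1, which had between 4.73 and 7.01 FPKM in the 4 libraries and staurosporine differences of -0.25 in Δ*czt-1* and -0.17 in the wild type, and reads in that overlap cannot be told apart either. The other 4 genes overlap no annotated gene there.

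*parp* was the least abundant of the 6 with DMSO and differed most between the strains with staurosporine. It had 20.6 FPKM with staurosporine and 0.720 FPKM with DMSO in Δ*czt-1* cells, against 2.48 FPKM with staurosporine and 0.610 FPKM with DMSO in wild-type cells. A single library, Δ*czt-1* with staurosporine, was far above the rest. FPKM was 28.6-fold higher with staurosporine in Δ*czt-1* (log2 difference 3.65, rank 50) and 4.07-fold higher in the wild type (log2 difference 1.11, rank 820). The wild-type value was under 2-fold (0.42) with a pseudocount of 5 FPKM. With staurosporine, FPKM was 8.31-fold higher in Δ*czt-1* cells than in wild-type cells, a log2 difference of 2.63 and rank 40 of 7896. With DMSO the strains differed by 0.10. In Δ*czt-1* with staurosporine 60.1% of all genes were lower than *parp*, against 16.8% in the wild type with staurosporine, and with DMSO the shares were 6.99% in Δ*czt-1* and 6.55% in the wild type. The ratio of *parp* to *aif* was 0.267 with staurosporine and 0.276 with DMSO in Δ*czt-1*, against 0.0487 with staurosporine and 0.167 with DMSO in the wild type. Measured against *aif*, *parp* was thus nearly as high with staurosporine as with DMSO in Δ*czt-1*, but lower with staurosporine in the wild type.

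The difference between the strains in the staurosporine difference (that of Δ*czt-1* minus that of the wild type) set the 6 genes apart by more than 2-fold in 3 cases. It was 2.54 for *parp*, at rank 107 from the top of 7896 genes, -1.70 for *amid* and -1.73 for *amid-2*. On this measure 13.5% of all genes were past 2-fold upward and 17.5% downward, or 30.9% in either direction. For *aif* it was 0.96, for metacaspase-1B 0.53 and for metacaspase-1A -0.42, all under 2-fold. The value of *aif* was 1.07 with a pseudocount of 0.1 FPKM and 1.07 with differences centred on the median gene, which made 4 members past 2-fold in place of 3. With that pseudocount 16.8% of all genes were past 2-fold upward and 21% downward. With centring the shares were 15.9% upward and 15% downward. Higher in both strains by at least 2-fold, with a further 2-fold or more in Δ*czt-1*, was a pattern of 114 genes or 1.44%, and *parp* was the member that showed it.

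**Figure D3:**
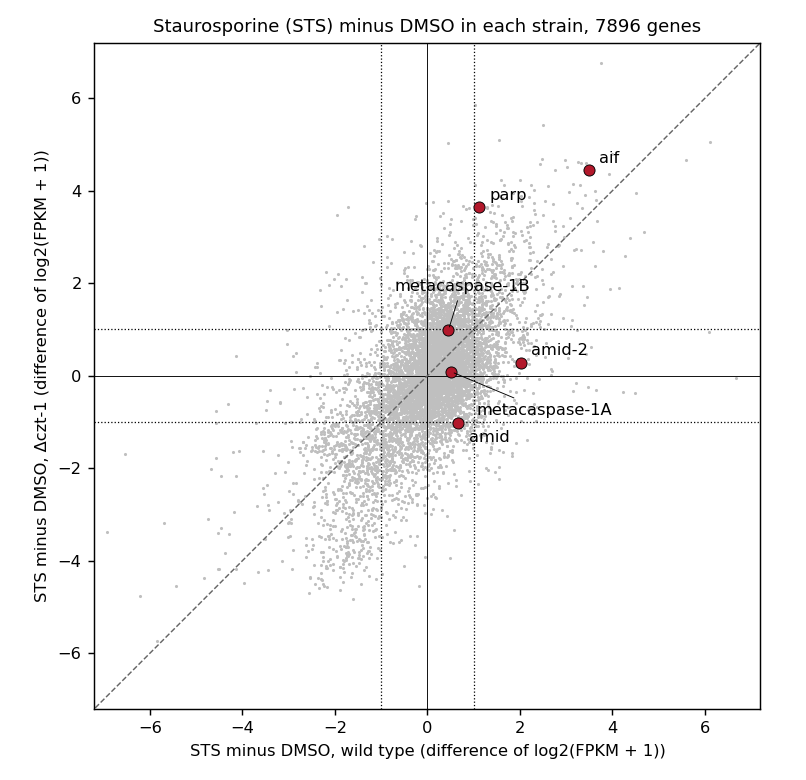
Difference of log2(FPKM + 1) between staurosporine (STS) and DMSO in Δ*czt-1* (vertical) against that in the wild type (horizontal) for 7896 genes (grey) and the 6 cell death genes (red). Dotted lines mark 2-fold and the dashed line equal differences: *parp* (3.65 in Δ*czt-1*, 1.11 in the wild type) lies above the dashed line, while *amid-2* (0.28 in Δ*czt-1*, 2.02 in the wild type) and *amid* (-1.03 in Δ*czt-1*, 0.67 in the wild type) lie below it.

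The sources used here give no read totals. A rough estimate takes the smallest products of FPKM and gene length in a library as the worth of 1 read. On it *parp* rested on about 636 reads with staurosporine and 45 with DMSO in Δ*czt-1*, against 66 with staurosporine and 35 with DMSO in the wild type. *amid-2* rested on about 46 reads with staurosporine and 69 with DMSO in Δ*czt-1*, against 153 with staurosporine and 56 with DMSO in the wild type. *amid* had between 87 and 404 estimated reads, *aif* between 129 and 1904, and each metacaspase gene at least 961. The thinnest values are therefore those of *parp* and *amid-2* outside their 1 high library. With DMSO, the worth of 1 read in Δ*czt-1* over that in the wild type was 0.912 on this estimate. The commonest ratio of low values in these libraries gave 0.717, so small differences between the strains in estimated reads say little.

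Apart from metacaspase-1B between the strains with DMSO, every member kept its direction in every comparison under the settings tried. The filters only choose which genes are kept and could not move a member's value, so the ranges rest on the pseudocounts and scalings. *amid* had 6 settings, as a filter of 10 FPKM removed it. Over 7 settings (pseudocounts of 0.1, 1 and 5 FPKM, other filters and other scalings), *aif* stayed between 3.44 and 5.05 in Δ*czt-1* and between 2.69 and 4.27 in the wild type. *parp* stayed between 2.16 and 4.66 in Δ*czt-1*, and between 1.78 and 3.004 for Δ*czt-1* minus the wild type with staurosporine. The staurosporine difference of *amid-2* in the wild type stayed between 1.16 and 2.70. Each of these remained past 2-fold throughout, as did the differences between strains in the staurosporine difference for *amid*, *amid-2* and *parp*.

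**Figure D4:**
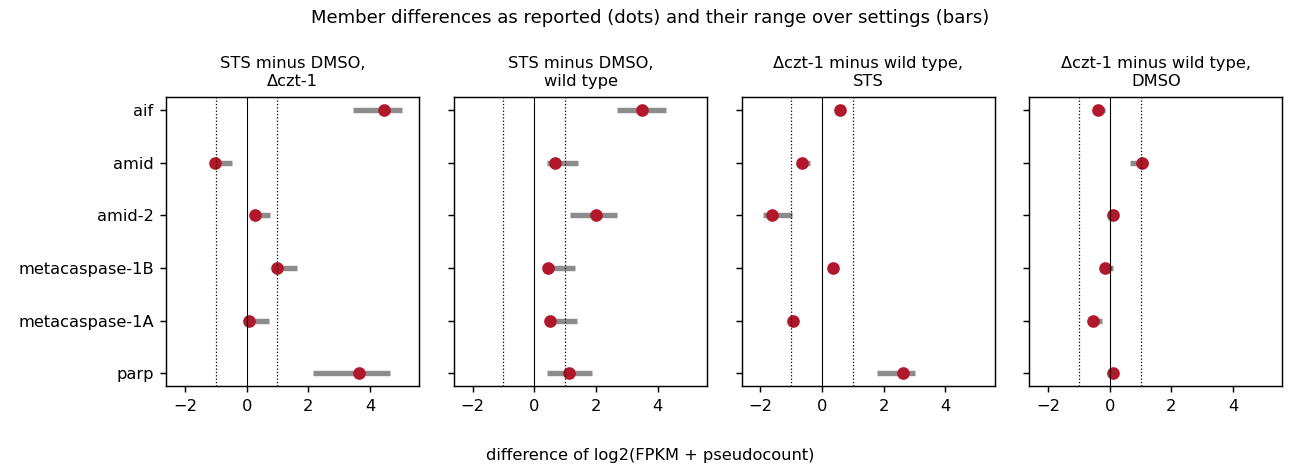
Log2 difference of each of the 6 genes as reported (red dots, pseudocount 1) and its range over the settings tried (grey bars), in 4 comparisons. Solid lines mark 0 and dotted lines 2-fold. The bars of *aif* in both strains, *amid-2* in the wild type and *parp* in Δ*czt-1* stay beyond the 2-fold line (lowest values 3.44, 2.69, 1.16 and 2.16), while *amid* in Δ*czt-1* reaches -0.46.

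Other genes of the same processes were taken as lists by locus or by words in the deposited descriptions, with the 6 members left out. Near *parp* in function, 8 genes for NAD-dependent deacetylation, NAD synthesis and ADP-ribose breakdown were measured. In Δ*czt-1*, 3 of the 8 were at least 2-fold higher with staurosporine and 1 lower, with a median of 0.71, beside 18.2% and 19.6% of all genes and their median of 0.000129. In the wild type 2 were higher and 1 lower, with a median of 0.50, beside 12.8% and 14% of all genes and their median of 0.11. The gene described as sirtuin-5 (NCU05973), a protein deacylase that consumes NAD+, had 13.8 FPKM with staurosporine and 0.807 FPKM with DMSO in Δ*czt-1*, against 4.88 FPKM with staurosporine and 0.429 FPKM with DMSO in the wild type. Like *parp* it was highest in staurosporine-treated Δ*czt-1* cells, with a strain difference of 1.33 there against 2.63 for *parp*. The ADP-ribose pyrophosphatase gene NCU08568, whose product splits free ADP-ribose, differed by 2.17 in Δ*czt-1* and 1.11 in the wild type. The ADP-ribose 1''-phosphate phosphatase gene NCU11889 differed by 1.42 in Δ*czt-1* and 0.26 in the wild type. The nicotinamide N-methyltransferase gene NCU04775 was lower, by -2.40 in Δ*czt-1* and -1.74 in the wild type.

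Of the mitochondrial proteins released or opened in animal cell death, their makers and the peptidyl-prolyl isomerases, 19 genes were measured. Most of the 19 were isomerase genes, so the medians describe mainly these. The counts of lower genes do not rest on these alone. In both strains they hold the cytochrome c, heme lyase and import factor genes given below. They also hold the ADP/ATP carrier gene NCU09477 (-1.13 in Δ*czt-1*, -1.85 in the wild type), while the porin gene NCU04304 (-0.62 in Δ*czt-1*, -0.80 in the wild type) was under 2-fold. The carrier and porin genes were named after their values were seen. In Δ*czt-1*, 1 of the 19 was at least 2-fold higher with staurosporine and 8 lower, with a median of -0.62, where 18.2% of all genes were higher and 19.6% lower. In the wild type 2 were higher and 6 lower, with a median of -0.72, where 12.8% of all genes were higher and 14% lower. The cytochrome c gene NCU01808, which encodes the electron carrier that activates caspases in mammals, ran opposite to *aif*. It had 178 FPKM with staurosporine and 2448 FPKM with DMSO in Δ*czt-1*, against 476 FPKM with staurosporine and 3560 FPKM with DMSO in the wild type, or log2 differences of -3.77 in Δ*czt-1* and -2.90 in the wild type. The gene for cytochrome c heme lyase (NCU05601), which attaches its heme, differed by -2.50 in Δ*czt-1* and -2.03 in the wild type. The cytochrome c import factor gene NCU11611 differed by -2.12 in Δ*czt-1* and -1.28 in the wild type, and the isomerase gene *fkr-3* (NCU04371) by -1.30 in Δ*czt-1* and -1.97 in the wild type. Between the strains with staurosporine, the isomerase gene NCU03853 (-1.50), cytochrome c (-1.41) and heme lyase (-1.04) were at least 2-fold lower in Δ*czt-1*. The isomerase genes NCU01200 (1.53 in Δ*czt-1*, 1.41 in the wild type) and NCU08554 (0.26 in Δ*czt-1*, 1.09 in the wild type) were the higher ones, and were named after their values were seen.

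3 other genes for flavoprotein oxidoreductases, the class of *aif*, were read beside it. The pyridine nucleotide-disulfide oxidoreductase gene NCU00153 differed between staurosporine and DMSO by -3.60 in Δ*czt-1* and -0.62 in the wild type, and the alternative NADH dehydrogenase gene NCU08980 by -3.23 in Δ*czt-1* and -1.68 in the wild type. The mitochondrial NADH dehydrogenase gene NCU05225 differed by 1.01 in Δ*czt-1* and 0.03 in the wild type. None of the 3 was at least 2-fold higher in both strains, as *aif* was, a pattern found in 6.51% of all genes. With so low a share, its absence from 3 genes does not set *aif* apart from its class.

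Among 9 genes for ceramide metabolism or with an apoptosis annotation, 2 were at least 2-fold higher with staurosporine in Δ*czt-1* and 0 in the wild type, with medians of 0.10 in Δ*czt-1* and -0.10 in the wild type, where 18.2% of all genes in Δ*czt-1* and 12.8% in the wild type were higher. Both were neutral ceramidase genes, whose products split the death-linked lipid ceramide: NCU10359 differed by 1.904 in Δ*czt-1* and -0.42 in the wild type, and NCU04721 by 1.52 in Δ*czt-1* and 0.30 in the wild type. NCU10359 was a low gene, with between 0.480 and 4.54 FPKM. The alkaline ceramidase gene NCU02969 went the other way in Δ*czt-1*, with -0.97 there and 0.08 in the wild type. Between the strains with staurosporine NCU10359 was 1.499 and NCU04721 1.10 higher in Δ*czt-1*. NCU02969 differed by -0.71 and the dihydroceramide desaturase gene NCU08927 by -1.11. Of other cysteine peptidases, 2 calpain-type genes passed the filter and 1 did not. At least 2-fold higher with staurosporine were 1 of the 2 in Δ*czt-1* and 0 in the wild type, beside 18.2% and 12.8% of all genes. The calpain-5 gene NCU03355 differed by 1.99 in Δ*czt-1* and 0.78 in the wild type, more than either metacaspase gene. The calpain-like gene NCU00317 differed by 0.33 in Δ*czt-1* and 0.31 in the wild type, less than metacaspase-1B in both strains.

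Of the loci that the study connected with *czt-1*, 8 were read beside the members, *czt-1* itself included. This list was chosen with the study's results known, so the counts are no independent evidence of a direction. With staurosporine, 2 of the 8 were at least 2-fold higher and 1 lower in Δ*czt-1*, against 18.2% and 19.6% of all genes, and 4 were higher and 0 lower in the wild type, against 12.8% and 14%. The drug transporter gene *abc3* (NCU09975) had 13.0 FPKM with staurosporine and 13.4 FPKM with DMSO in Δ*czt-1*, against 798 FPKM with staurosporine and 6.79 FPKM with DMSO in the wild type. Like *amid-2*, which had the smaller difference, it was high in the staurosporine-treated wild type alone. The catalase gene *cat-1* (NCU08791) differed by 3.62 in Δ*czt-1* and 3.35 in the wild type, beside 4.44 and 3.48 for *aif* in these strains. *tah-3* (NCU03686) had 13.4 FPKM with staurosporine and 89.4 FPKM with DMSO in Δ*czt-1*, against 31.1 FPKM with staurosporine and 27.2 FPKM with DMSO in the wild type, and its highest library, Δ*czt-1* with DMSO, was also that of *amid*. NCU06977 differed by 3.58 in Δ*czt-1* and 1.04 in the wild type, beside 3.65 in Δ*czt-1* and 1.11 in the wild type for *parp*. The remaining loci were under 2-fold: NCU03273 differed by 0.99 in Δ*czt-1* and 0.79 in the wild type, NCU02959 by 0.92 in Δ*czt-1* and 0.63 in the wild type, and NCU06609 by 0.11 in Δ*czt-1* and -0.16 in the wild type.

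The genes most like each member were found by the Euclidean distance between profiles of log2(FPKM + 1) over the 4 libraries, each centred on its own mean, for the 5 members that spanned at least 1 log2 unit. For *aif* they were NCU00695 (distance 0.19), the gene described as norsolorinic acid reductase NCU07723 (0.34) and NCU00262 (0.39). NCU00695 had 111 FPKM with staurosporine and 3.62 FPKM with DMSO in Δ*czt-1*, against 61.5 FPKM with staurosporine and 4.78 FPKM with DMSO in the wild type, much as *aif* did. For *parp* they were NCU11508 (0.18), the triacylglycerol lipase gene NCU10506 (0.20) and NCU05906 (0.27). NCU11508 had 43.6 FPKM with staurosporine and 2.67 FPKM with DMSO in Δ*czt-1*, against 7.05 FPKM with staurosporine and 2.87 FPKM with DMSO in the wild type.

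For *amid-2* the nearest profiles were those of the genes described as capsule protein NCU05123 (0.16) and BAR adaptor protein RVS167 NCU04637 (0.16), and of NCU08957 (0.20). NCU05123 had 14.9 FPKM with staurosporine and 11.4 FPKM with DMSO in Δ*czt-1*, against 45.8 FPKM with staurosporine and 9.39 FPKM with DMSO in the wild type. For *amid* they were NCU05992 (0.094), NCU04661 (0.11) and NCU03928 (0.13), all described as hypothetical proteins. For metacaspase-1A they were NCU08805 (0.10), the bax inhibitor family gene NCU10028 (0.13) and NCU08014 (0.14). NCU10028 had 199 FPKM with staurosporine and 199 FPKM with DMSO in Δ*czt-1*, against 359 FPKM with staurosporine and 277 FPKM with DMSO in the wild type, while NCU08805 and NCU08014 were near or below 1 FPKM in the wild type and listed at 0 in both Δ*czt-1* libraries. Distances of members that span little are small for many genes, so a short distance to *amid* or metacaspase-1A says less than one to *aif* or *parp*.

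The neighbours of *aif* in NC12, NCU05849 and NCU05851, had between 0.464 and 1.499 FPKM in the 4 libraries, far below *aif* with staurosporine. Of the neighbours of *parp*, NCU08851 differed by -1.42 in Δ*czt-1* and -1.95 in the wild type, opposite in sign to *parp*, and NCU08853 was at or near 0 throughout. NCU12057, beside *amid-2*, differed by -0.23 in Δ*czt-1* and -2.07 in the wild type, again opposite in sign to the member. NCU06062, beside *amid*, differed by -1.03 in Δ*czt-1*, like *amid*, and by -1.01 in the wild type, where *amid* was higher by 0.67. Of the neighbours of metacaspase-1A, NCU09881 differed by 0.46 in Δ*czt-1* and 0.60 in the wild type, beside 0.09 in Δ*czt-1* and 0.51 in the wild type for metacaspase-1A. NCU09883, on the other side, differed by 0.57 in Δ*czt-1* and by -0.42 in the wild type, there opposite in sign to metacaspase-1A.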

How the data were processed

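RNA-seq libraries were analysed for 4 samples, 1 per condition. Single reads of 50 bp were processed by the authors with TopHat2 2.0.4, Cufflinks 2.0.2 and Cuffdiff, per the submitters' processing notes, and the deposited values are FPKM that the authors made with Cufflinks, normalized for transcript length and library size. The sources used here give neither the genome build nor the use of strand nor the handling of shared reads. The 3 deposited tables carry a decimal comma, and DMSO columns held in 2 tables were identical (largest difference 0.0 FPKM). Columns of the authors' own comparisons (fold changes, test statistics, p- and q-values) were not used.

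Differences of log2(FPKM + 1) were computed over genes with at least 1 FPKM in any library, and 2-fold served as a rule of size. No test was run. The cell death genes and lists were chosen with earlier results of these data known. All 6 genes were named, with *czt-1*, 8 of the loci that the study connects with *czt-1*, up to the 3 largest differences of at least 2-fold per other list and comparison, and the 3 nearest profiles of each member spanning at least 1 log2 unit. Neighbours came from the NC12 annotation, in which 9141 of 9691 rows and all 6 members matched a locus tag. No coordinates are printed. Reads were estimated from the 5th percentile of FPKM times NC12 gene length among rows above 0 and under 0.5 FPKM. Gene lengths include introns, so the estimates are rough. Alternatives covered the pseudocount, filter, scaling and fold. Scripts were tested on simulated data and used Python 3.11.15, numpy 2.4.6, pandas 2.3.3 and matplotlib 3.10.9.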

Additional observations from a re-analysis of the deposited data

Results flagged for a closer look

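4 of the 6 genes had differences of opposite sign in groups that share a contrast, each from 1 library per condition, and none of these differences between groups was tested. Opposite signs of the Δ*czt-1* minus wild type difference with staurosporine and with DMSO, which all 4 of them showed, were found in 51.3% of all genes, so the count of members is near the background. Opposite signs of the staurosporine difference in the strains, shown by *amid*, were found in 30% of all genes. The staurosporine minus DMSO difference of *amid* was -1.03 in Δ*czt-1* and 0.67 in the wild type. The Δ*czt-1* minus wild type difference of *amid* was -0.65 with staurosporine and 1.05 with DMSO. For *aif* the Δ*czt-1* minus wild type difference was 0.59 with staurosporine and -0.36 with DMSO. For *amid-2* it was -1.62 with staurosporine and 0.12 with DMSO. For metacaspase-1B it was 0.37 with staurosporine and -0.15 with DMSO, and the DMSO value turned to 0.12 when libraries were scaled to the same sum.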

How the results depend on the processing

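With every library brought to an equal FPKM sum, the number of members at least 2-fold apart between staurosporine and DMSO in the wild type was 6 in place of 3. Between the strains with DMSO the number was 0 in place of 1 with a pseudocount of 5 FPKM, with a filter of 10 FPKM (which removed *amid* and left 5 members), with differences centred on the median gene, and at 3-fold. Between the strains with staurosporine it was 1 in place of 2 with a pseudocount of 5 FPKM, where 4.58% of all genes were higher and 7.4% lower, and 5 at 1.5-fold, where 22% were higher and 23.2% lower. Other member counts, taken in either direction, stayed within 1.5 times. With equal sums the count between staurosporine and DMSO in Δ*czt-1* stayed at 3, but with other members. It was 3 higher and 0 lower in place of 2 higher and 1 lower, as metacaspase-1B (1.64) came in and *amid* (-0.46) dropped out. Of 175 differences of single members under alternatives, 162 stayed on their side of 2-fold and 13 crossed it. The values under the other filters are among those that stayed. A filter leaves a kept member's value as it was, so these could not cross. The share of all genes at least 2-fold higher with staurosporine in the wild type was 12.8%, against 18% with a pseudocount of 0.1 FPKM, 6.79% with 5 FPKM and 43.1% with equal sums. For the strains with DMSO, 2.58% became 5.69%, 0.684% and 5.27%. No paired analysis was possible because each condition had 1 library, and for the same reason no library could be left out. Values of *parp* and *amid-2* near 1 FPKM rest on few reads.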
